A study of Mus musculus with 3 samples.

Results

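Glutathione S-transferases join the tripeptide glutathione to reactive, often lipid-loving molecules and so prepare them for export and excretion. The cytosolic enzymes work as dimers and are grouped by sequence into classes, among them alpha, mu, theta and zeta. Liver is known as a main site of this detoxification, and alpha and mu enzymes are among the abundant soluble proteins of hepatocytes.

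Described here are 9 transferase genes on 3 two-colour oligonucleotide arrays that compared mouse liver RNA with mouse spleen RNA. The genes are Gsta2, Gsta3 and Gsta4 of the alpha class, Gstm1, Gstm2 and Gstm6 of the mu class, Gstt1 and Gstt2 of the theta class, and Gstz1 of the zeta class. Members were all probes that carry 1 of these symbols in the platform annotation, which gave 12 probes of 16281 in the table, and 9 genes of 10698 named by a single symbol. All 12 were measured on all 3 arrays, so none was lost to a missing value. Of the 9 genes, 3 had 2 probes (Gsta2, Gstt1 and Gstt2) and 6 had 1 probe. The probes are told apart below by the sequence accession that the annotation gives for each.

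Per the labels, every array carried total RNA of spleen in the green dye and of liver in the red dye. Both were commercial RNAs of the same catalogue product on each array, amplified in 1 round before labelling. The labels do not give strain, sex, age or number of mice, nor what was repeated between the arrays. The spread over the 3 arrays, and each p-value, may therefore be technical and does not cover differences between animals. Liver was in the same dye on every array, and the effect of the dye on a probe and the difference between tissues cannot be told apart. With bulk RNA, fewer cells of a type and less RNA per cell cannot be told apart either.

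Each value is a deposited log ratio of the channels for 1 probe on 1 array, read as log2 because all 3 columns top out at the log2 of 100. A value of 1 is then a 2-fold difference. Positive values were read as higher in liver, which is likely, though the labels give no direction for the ratio. For this reading, the measured liver genes Arg1 and Ahsg, an enzyme of the urea cycle and a plasma glycoprotein, averaged 4.86 ± 0.17 and 3.76 ± 0.30 (SD, n = 3 arrays). The B-cell factor Spib averaged -4.08 ± 0.15, and 7 of 9 measured probes of spleen genes passed the test toward spleen. Other defining genes were incomplete or not as clear. For Alb the sole measurement, 6.16 from array 2, was toward liver. Arrays 1 and 3 gave it an exact 0, taken as no measurement, so Alb was not tested. The Hnf4a probe measured on all arrays averaged 0.04, from values of 0.99, -0.02 and -0.86. Cd3e averaged 0.13, and neither of these passed. Probes were tested against 0 with limma across all 14122 probes measured on all arrays, and past the test means a Benjamini-Hochberg adjusted p under 0.05. The median of all probe means was 0.02.

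Most transferase probes were higher in the liver RNA. Of the 12, 9 passed the test toward liver, 1 passed toward spleen and 2 did not pass. Among all 14122 probes 23.5% passed toward liver and 26.7% toward spleen. The 9 also lay at 2-fold or more, which 8.85% of all probes did toward liver. Each of the 9 genes had 1 probe in that group. The 9 means ran from 1.44 for Gstm2 to 3.61 for Gsta3, and no single array value among them was below 1.38. The median of all 12 probe means was 2.51.

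**Figure D1:**
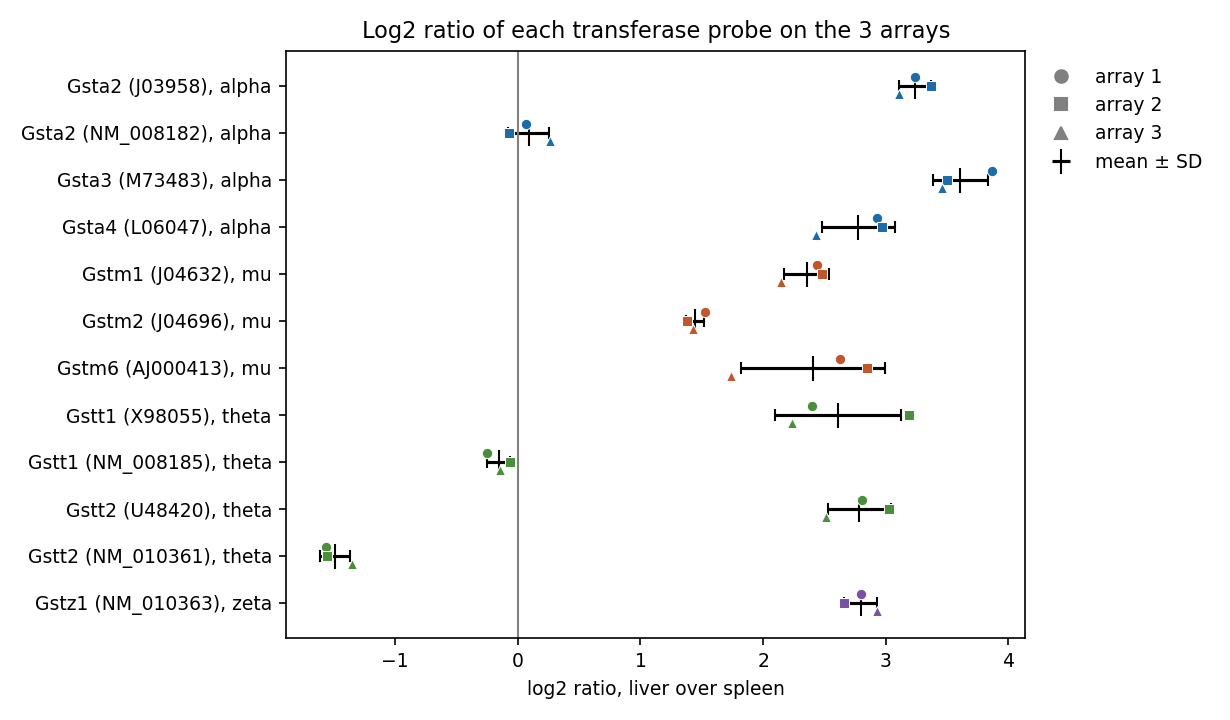
Log2 ratio of liver over spleen (x axis) for each of the 12 probes (rows, with gene, accession and class). Symbols are the 3 arrays, and the black bar is their mean ± SD. The 9 probes toward liver sit between 1.38 and 3.86, the NM_010361 probe of Gstt2 lies near -1.49, and the low probes of Gsta2 and Gstt1 lie around 0.

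Alpha-class enzymes include the main transferases of hepatocytes and also act on lipid peroxides. The Gsta3 probe read 3.86, 3.50 and 3.46 on arrays 1, 2 and 3. Its mean was 3.61 ± 0.22 (n = 3), a 12.2-fold ratio toward liver (limma adjusted p = 1.87e-05). This was the highest mean of the 12, and 0.906% of the 14122 probes had a higher one. The J03958 probe of Gsta2 read 3.24, 3.37 and 3.11, a mean of 3.24 ± 0.13 and a 9.45-fold ratio (limma adjusted p = 1.81e-05). Its values did not overlap those of Gsta3. Gsta4 encodes an enzyme with a preference for hydroxynonenal, an aldehyde from oxidised lipids. Its probe read 2.93, 2.97 and 2.43, with a mean of 2.78 ± 0.30 and a 6.86-fold ratio (limma adjusted p = 5.31e-05). All 3 values lay below those of the Gsta2 probe J03958.

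Mu-class genes had smaller ratios than these alpha probes, with some overlap. Gstm1, a major mu enzyme of mouse liver, read 2.44, 2.48 and 2.15, a mean of 2.36 ± 0.18 and a 5.12-fold ratio (limma adjusted p = 3.98e-05). Gstm6 read 2.63, 2.85 and 1.74, a mean of 2.40 ± 0.59 (limma adjusted p = 0.000509), the widest spread of the 12 probes, with array 3 well under the others. Gstm2 read 1.52, 1.38 and 1.43, a mean of 1.44 ± 0.07 and a 2.72-fold ratio (limma adjusted p = 9.43e-05). The Gstm2 values lay below every value of Gstm1 and Gstm6 on all arrays, while Gstm1 and Gstm6 overlapped. The alpha and mu transferases are families of closely related genes, and signal shared between relatives was not resolved here.

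The zeta enzyme Gstz1 isomerises maleylacetoacetate, a step in the breakdown of tyrosine. Its single probe read 2.80, 2.66 and 2.93, a mean of 2.80 ± 0.14 and a 6.94-fold ratio (limma adjusted p = 2.09e-05). These values overlapped those of Gsta4 and of the higher probes of both theta genes.

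Theta enzymes act on small halogenated molecules, among other substrates. For both theta genes the answer depended on the probe. The U48420 probe of Gstt2 read 2.81, 3.03 and 2.52, a mean of 2.78 ± 0.26 and a 6.89-fold ratio toward liver (limma adjusted p = 3.98e-05). The NM_010361 probe of the same gene read -1.57, -1.56 and -1.35, a mean of -1.49 ± 0.12 and a 2.81-fold ratio toward spleen (limma adjusted p = 0.000109). Both were far from 0 on every array, on opposite sides.

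The X98055 probe of Gstt1 read 2.40, 3.19 and 2.24, a mean of 2.61 ± 0.51 and a 6.11-fold ratio (limma adjusted p = 0.00024). The NM_008185 probe of Gstt1 read -0.25, -0.07 and -0.15 and did not pass, with a mean of -0.16, a 95% interval of -0.37 to 0.06 and a limma adjusted p of 0.176. Gsta2 had the same pattern. Its NM_008182 probe read 0.07, -0.07 and 0.26, a mean of 0.09 with an interval of -0.16 to 0.33 (limma adjusted p = 0.486), and it averaged -0.00083 without array 3. Both low probes thus read within 0.27 of 0 on every array, where the other probe of the gene was above 2.23.

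**Figure D2:**
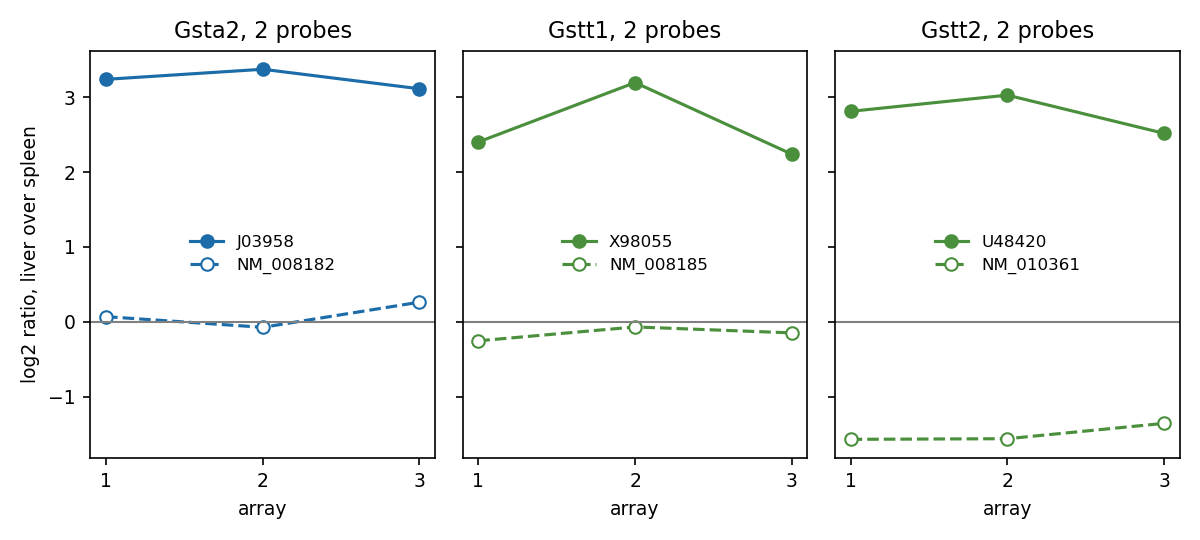
Log2 ratio of liver over spleen (y axis) on arrays 1 to 3 (x axis) for the 3 genes with 2 probes, 1 panel a gene. Filled circles are the GenBank-accession probe and open circles the RefSeq-accession probe, and in every panel the filled series lies above the open one on all 3 arrays.

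The difference between probes of 1 gene was itself tested, on each array, for all 2902 pairs of probes that share a gene symbol and were measured on all arrays. In Gstt2 the probes differed by 4.38, 4.58 and 3.87, a mean of 4.28 ± 0.37 (n = 3, limma adjusted p = 0.000242). In Gsta2 they differed by 3.17, 3.44 and 2.85, a mean of 3.15 ± 0.30 (limma adjusted p = 0.000331). In Gstt1 they differed by 2.65, 3.26 and 2.38, a mean of 2.77 ± 0.45 (limma adjusted p = 0.000635). All 3 pairs passed, and so did 38% of all pairs, so passing alone does not set these genes apart. The median absolute difference over all pairs was 0.32, and 30 pairs (1.03%) differed by 3 or more. The Gstt2 pair ranked 4 of 2902 in size, Gsta2 ranked 23 and Gstt1 ranked 38.

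Few pairs in the table held a high probe, and among those a lower probe near 0 was not unusual. In 95 of 2902 pairs (3.27%) the higher probe averaged 2 or more. In 36 of these (37.9%) the lower probe lay within 0.5 of 0, as in Gsta2 and Gstt1. In 50 of the 95 (52.6%), the larger share, the lower probe was at 1 or above. A lower probe below -1 was found in 2 of the 95. These were Gstt2 and the chemokine gene Ccl9, which was named after its values were seen, with probes at 2.47 and -1.73. Over all pairs, 7 (0.241%) had both probes past the test at 2-fold or more in opposite directions.

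**Figure D3:**
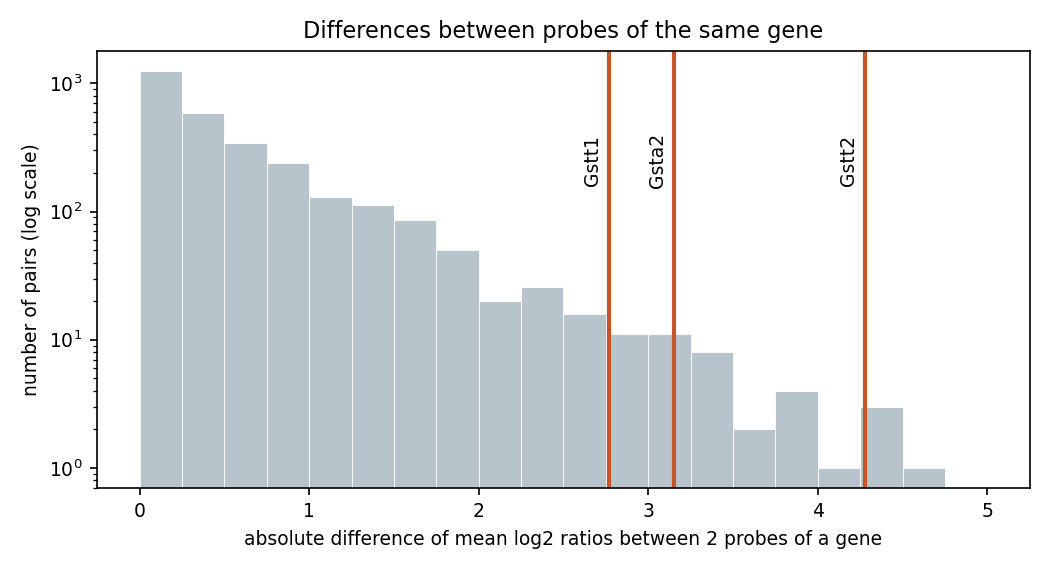
Number of pairs of probes of 1 gene (y axis, log scale) by the absolute difference of their mean log2 ratios (x axis, bins of 0.25), for 2902 pairs. Vertical lines mark Gstt1 at 2.77, Gsta2 at 3.15 and Gstt2 at 4.28, in the sparse right end of the distribution.

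In each of the 3 discordant genes the higher probe was annotated with a GenBank accession and the lower with a RefSeq accession. Of the 8 GenBank-accession probes of the 9 member genes all 8 passed toward liver. Of their 4 RefSeq-accession probes 1 did, that of Gstz1. Other transferases did not all follow this split. The RefSeq-accession probe of Gsta1 passed toward liver, and the GenBank-accession probes of Gstt4 and Gstcd passed toward spleen. The RefSeq table lists each of the 4 RefSeq accessions of the members under the same gene symbol as the platform annotation. The 8 GenBank accessions, those of the higher discordant probes among them, could not be checked in this way. The whole table did not show this order. In 1663 pairs with 1 accession of each kind, the GenBank probe was the higher in 49.7%. Among the 66 of these whose higher probe averaged 2 or more, it was the higher in 56.1%. The probe sequences were not used here, so what each probe covers was not tested.

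When the probes of a gene were averaged, all 9 genes passed toward liver among 9803 genes, of which 25.3% did. The averages of the 2-probe genes describe neither probe. Gstt2 averaged 0.65 ± 0.08, between probes at 2.78 and -1.49, and its adjusted p (limma) was 0.00132. Gstt1 averaged 1.23 ± 0.29 and Gsta2 1.66 ± 0.02. The small SD of Gsta2 came with probes that differed by 3.15.

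By class, the median of the probe means was 3.01 for alpha (4 probes), 2.36 for mu (3 probes), 1.23 for theta (4 probes) and 2.80 for zeta (1 probe). The alpha median was above the mu median on each array, at 3.08, 3.17 and 2.77 against 2.44, 2.48 and 1.74. The low theta median came from its low probes: with the higher probe of each gene alone, the theta median was 2.70, against 3.24 for alpha and 2.36 for mu. This choice was made by value and could raise only alpha and theta, since each mu gene had 1 probe. The order of theta and mu under it is therefore not a finding. Members are not replicates of a class, so these are descriptions with no test. Ordered by mean, every Gsta3 value lay above those of all other probes. The J03958 probe of Gsta2 came next, and its lowest value of 3.11 was under the highest of the X98055 probe of Gstt1, 3.19. The next 6, from Gstz1 at 2.80 to Gstm1 at 2.36, each overlapped the neighbour in the order. Gstm2 stood apart below them.

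Array 3 gave the lowest value for 7 of the 9 probes toward liver, and array 2 the highest for 6. The SD over all 14122 probes was 0.896 on array 3, against 1.00 and 1.01 on arrays 1 and 2. With the arrays centred and scaled to equal spread, array 3 was the lowest for 5 of the 9 and array 2 the highest for 7.

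Most of the 9 genes lie in runs of relatives in the genome, and the ratio differed between some neighbours. In the gene order of the RefSeq table for assembly GRCm38.p6, the mu genes form an unbroken run of Gstm5, Gstm7, Gstm6, Gstm3, Gstm2, Gstm1 and Gstm4. Gstm5 averaged -0.24 ± 0.07 and Gstm7 0.29 ± 0.36, and neither passed (limma adjusted p = 0.0537 and 0.16). Gstm5 passed toward spleen with arrays centred, at an adjusted p of 0.0455 (limma), and Gstm7 passed toward liver without array 3, where it averaged 0.48. Gstm4, at the other end, averaged 2.73 ± 0.44 (limma adjusted p = 0.000136). Gstm3 was listed at 0 on array 1 and read 0.36 and 0.22 on arrays 2 and 3. Gstm6 thus lay between genes that read near 0 where measured, and Gstm1 between Gstm2 and Gstm4, both toward liver.

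The theta genes lie in the order Gstt3, Gstt1, Gstt4 and Gstt2. Gstt3 averaged 2.73 ± 0.79 (limma adjusted p = 0.000865) and Gstt4 -1.05 ± 0.72 (limma adjusted p = 0.0235). Gstt4 did not pass without array 2 (-1.13, limma adjusted p = 0.0735). The Gstt4 values of -1.84, -0.87 and -0.42 and those of the low Gstt2 probe were both toward spleen. On the alpha side, Gsta1 lies next to Gsta4 and averaged 2.83 ± 0.22 (limma adjusted p = 2.98e-05), close to Gsta4 at 2.78.

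Upstream sequences were set beside these ratios. RefSeq promoter entries (build GRCm38.p6) were found for 7 of the 9 genes. The 250 bases upstream of the annotated start are shown for Gsta3, the member with the highest ratio, and for Gstm1 and Gstm2, neighbours whose array values did not overlap. They lie at chr1:21240335-21240584 (plus strand), chr3:108017974-108018223 (minus strand) and chr3:107986421-107986670 (minus strand). Capitals mark matches to TGACNNNGC, the core of the antioxidant response element bound by Nrf2, and to GTTAAT, a half-site of the hepatocyte factor HNF1, each searched on both strands together with the TATA box letters TATAAA. They are written 5′ to 3′ on the gene's strand.
Gsta3: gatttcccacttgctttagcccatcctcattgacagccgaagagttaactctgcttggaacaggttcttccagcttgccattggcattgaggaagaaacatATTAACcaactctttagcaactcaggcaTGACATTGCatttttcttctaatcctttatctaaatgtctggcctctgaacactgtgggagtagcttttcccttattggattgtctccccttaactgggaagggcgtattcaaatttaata
Gstm1: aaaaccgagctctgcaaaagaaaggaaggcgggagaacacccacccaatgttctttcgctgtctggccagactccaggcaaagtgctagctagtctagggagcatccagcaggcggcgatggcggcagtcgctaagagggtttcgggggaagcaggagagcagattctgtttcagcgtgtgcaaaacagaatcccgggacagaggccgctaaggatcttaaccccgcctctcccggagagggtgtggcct
Gstm2: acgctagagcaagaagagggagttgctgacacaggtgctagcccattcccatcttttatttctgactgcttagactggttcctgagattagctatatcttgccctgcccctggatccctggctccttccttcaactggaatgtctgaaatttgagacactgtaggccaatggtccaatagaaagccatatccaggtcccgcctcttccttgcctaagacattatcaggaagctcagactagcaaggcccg
Gsta3 held 1 match to the antioxidant response element core, starting 121 bases before the start site, and 1 to the HNF1 half-site on the other strand. Among all 11 windows of the 7 genes, which include other annotated starts, no other match to these 2 motifs was found. TATAAA was found in a window of another Gstm1 start, 30 bases before it, and on the other strand in the Gsta2 window. Gstm1 and Gstm2 held none of the 3 motifs in the windows shown, and 126 of 273 columns (46.2%) of their alignment were identical. For Gstm1, the window shown and aligned was that of the first listed of its annotated starts. Between Gstm2 and Gsta3, genes of different classes, 46.2% were identical, and between Gstm1 and Gsta3 41.2% were. Of 32851 RefSeq windows of the same length, 10.2% held the first motif, 6.43% the second and 12.4% TATAAA. A match is a description of letters and not evidence of binding.

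The remaining transferases were mixed. This list of 32 genes took in the other cytosolic classes, the membrane-bound enzymes and proteins with a transferase-like fold. Of its 22 probes measured on all arrays, 7 passed toward liver, 5 toward spleen and 10 did not pass. Among all probes 23.5% passed toward liver and 26.7% toward spleen. The median of the list was -0.04, against 2.51 for the 12 member probes. The members were named with earlier results known, so the contrast is not independent evidence. Besides Gsta1, Gstm4 and Gstt3, the mitochondrial and peroxisomal Gstk1 averaged 2.08 ± 0.23 and the prostaglandin synthase Ptges2 1.13 ± 0.11. Toward spleen, Gstcd averaged -0.95 ± 0.07 (limma adjusted p = 0.000378). Without array 2, 3 passed toward spleen in place of 5.

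Some well-known transferases gave incomplete or discordant readings. The omega enzyme Gsto1 had a probe at 1.59 ± 0.38 (limma adjusted p = 0.00063) and another at -0.12, which did not pass. Here too the higher probe had a GenBank accession and the lower a RefSeq accession. The pi enzyme Gstp1 was listed at 0 on array 1 and read 1.64 and 1.40 on arrays 2 and 3. The microsomal Mgst1 read 3.64 on array 3 with 1 probe and was otherwise listed at 0. Hpgds, the sigma-class prostaglandin D synthase, read -1.16, -0.31 and 0.00 and did not pass.

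Glutathione is the co-substrate of every member. The glutathione supply list took in its synthesis and also genes of cysteine, glycine and methyl metabolism, and several were on the liver side. Of 16 measured probes, 8 passed toward liver and 4 toward spleen (23.5% and 26.7% of all probes did), with a median of 0.49. Both subunits of the rate-limiting ligase were among those toward liver: the catalytic Gclc at 1.5 ± 0.25 and the modifier Gclm at 0.88 ± 0.08. Glutathione synthetase (Gss) averaged 1.42 ± 0.28. The largest were enzymes of sulfur and methyl metabolism and not of glutathione synthesis itself. They were cysteine dioxygenase Cdo1 at 4.0 ± 0.27, Gnmt at 3.49 ± 0.43 and Bhmt at 3.27 ± 0.11. Toward spleen were Ggct, a gamma-glutamyl cyclotransferase, at -0.83 ± 0.22 and Mat2b at -0.58 ± 0.13. The means of Gclm and Gss lay below those of all 9 transferase probes toward liver, and that of Gclc below all but Gstm2.

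The glutathione redox list took in peroxidases, glutathione reductase and glutaredoxins, and also glyoxalases and other enzymes such as Esd and Pgd. Its probes were more often toward liver than toward spleen. Of 15 measured probes, 9 passed toward liver and 2 toward spleen (23.5% and 26.7% of all probes did), with a median of 0.33. Glyoxalase Glo1 averaged 2.31 ± 0.19, the peroxidase Gpx7 2.04 ± 0.18 and the esterase Esd 1.78 ± 0.07. The plasma peroxidase Gpx3 averaged -1.84 ± 0.43 (limma adjusted p = 0.000503). Glutathione reductase Gsr, the enzyme that regenerates reduced glutathione, had probes past the test in both directions, at 1.56 ± 0.31 and -0.76 ± 0.16. In Gsr the higher probe had the RefSeq accession, the reverse of the member genes. It was singled out after its values were seen.

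Conjugates made by transferases are exported and trimmed to mercapturates. Of 16 measured probes of this list, 7 passed toward liver and 3 toward spleen (23.5% and 26.7% of all probes did). The median was 0.30. The canalicular exporter of glutathione conjugates, Abcc2, averaged 3.50 ± 0.50 (limma adjusted p = 8.98e-05), with array values that overlapped those of Gsta3. The deacylase Acy1 averaged 2.26 ± 0.23 and the aminopeptidase Lap3 2.11 ± 0.03. Toward spleen, the glutamyltransferase relative Ggt6 averaged -0.81 ± 0.12. The exporter Abcc1 had a probe at -0.72 ± 0.21, past the test, and another at -0.21, which did not pass.

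The transcription factor Nrf2 (Nfe2l2) is known to drive many transferase genes. Its own probe was slightly higher in spleen, at -0.38, -0.41 and -0.42 on the 3 arrays (mean -0.40 ± 0.02, limma adjusted p = 0.00848). Measured were 18 probes of Nrf2, its regulators and textbook targets outside the transferases, with a median of 0.69. Of these, 10 passed toward liver and 5 toward spleen (23.5% and 26.7% of all probes did). Aldehyde oxidase Aox1 averaged 3.22 ± 0.13, the reductase Akr1c13 3.19 ± 0.08 and carbonyl reductase Cbr1 2.13 ± 0.01. Heme oxygenase Hmox1 was on the spleen side, at -1.44 ± 0.05 (limma adjusted p = 8.91e-05), as was the small Maf protein Mafk, a partner of Nrf2, at -0.56 ± 0.03 (limma adjusted p = 0.00245). Nqo1 averaged 0.61 ± 0.46 and passed with all arrays, but not without array 1 or array 2 (limma adjusted p = 0.0898 and 0.12).

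Gstz1 sits in the tyrosine pathway. The list for this pathway also took in cofactor enzymes, aminotransferases and Fahd1, and most of its probes were higher in liver. Of 10 measured probes, 9 passed toward liver and 1 toward spleen (23.5% and 26.7% of all probes did), with a median of 2.38. The dioxygenase Hpd, which acts upstream of Gstz1, read 3.86, 4.0 and 3.56. Fumarylacetoacetase (Fah), which takes the product of Gstz1, read 2.40, 3.09 and 1.87, a range that held all 3 values of Gstz1. The cofactor enzymes Pcbd1 and Qdpr averaged 2.84 ± 0.10 and 2.77 ± 0.29. The probe toward spleen was of Fahd1, at -0.48 ± 0.26, while another Fahd1 probe averaged 1.28 ± 0.04. The former did not pass without array 1 or array 2 (limma adjusted p = 0.0671 and 0.0901), which left 0 toward spleen.

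**Figure D4:**
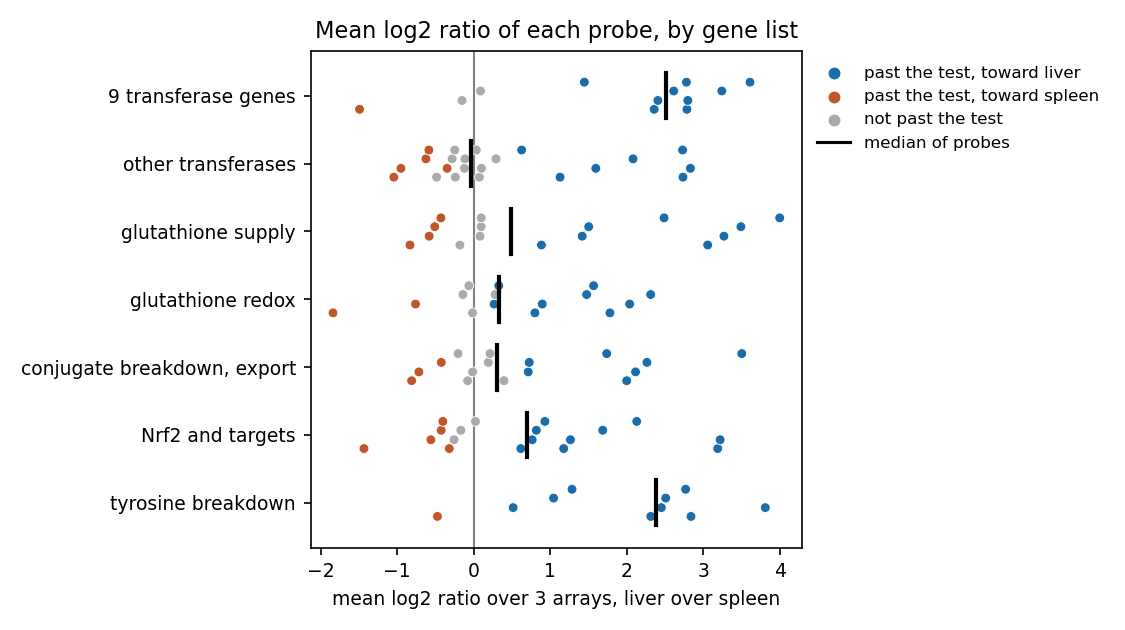
Mean log2 ratio of liver over spleen over 3 arrays (x axis) for each measured probe of the 9 transferase genes and of the 6 related lists (rows). Colour gives the limma call and the black line is the median of the probes, highest for the 9 transferase genes at 2.51 and for tyrosine breakdown at 2.38.

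Genes with the most similar readings were found by the distance between log2 ratios over the 3 arrays. Nearest to Gsta3 were the fatty acid elongase Elovl3 (distance 0.036), the steroid dehydrogenase Hsd17b2 (0.13) and the antiprotease Serpina1d (0.13). Nearest to Gstm6 were Fpgs (0.23), Aox3 (0.25) and Sult1c2 (0.28). Nearest to the U48420 probe of Gstt2 were Qdpr (0.057), Pxmp2 (0.063) and Sqor (0.10). Nearest to Gstz1 were Fabp2 (0.069), Sln (0.12) and Mettl26 (0.16). With 3 arrays of the same RNA products, such distances describe similar ratios and the arrays' shared scale.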

How the data were processed

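The authors deposited 1 log ratio per probe and array, taken as log2 from the values; how background, dyes and weak spots were handled is not given in the sources used here. Each deposited log2 column has a median near 0. An exact 0 (1098 to 1414 probes an array, abundant transcripts among them) was taken as no measurement. Channel intensities were not used here, so no filter on dim probes could be set, and the number of arrays limits the precision.

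Probes were named from the platform annotation. Of 16281 probes, 13738 had 1 gene symbol, 52 several and 2491 none. The tests used limma 3.58.1 under R 4.3.3 on log2 ratios, against 0 (intercept only, moderated variances with 3.38 prior degrees of freedom, two-sided, Benjamini-Hochberg) over all 14122 probes measured on 3 arrays. The same fit was run on gene means (9803 genes) and on differences within 2902 probe pairs, and tested on simulated data. Sequence alignments used Biopython 1.88.

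All members are named. From each related list the 3 largest probes toward liver and 2 toward spleen past the test are named, besides any other transferase. Gsr toward liver, Gclc, Gclm, Gss, Nfe2l2, Nqo1, Fah, the second Abcc1 and Fahd1 probes, Ccl9 and the direction genes in the text were added after their values were seen. The members and lists were chosen with earlier results of these data known. Alternatives were array centring, scaling, zeros kept, fewer arrays, robust moderation, each array left out, a test against a 2-fold difference, other probe sets and other gene summaries.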

Additional observations from a re-analysis of the deposited data

How the results depend on the processing

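The calls of all 12 transferase probes and of all 3 probe pairs stayed on the same side of the threshold under every alternative run. The 1 change of sign was the low Gsta2 probe without array 3 (-0.00083, limma adjusted p = 0.996), which averaged up to 0.17 (without array 2) and did not pass in any setting. The 9 probes toward liver had a highest adjusted p (limma) of 0.0167 (Gstm6). Averaged over probes, Gstt1 and Gstt2 did not pass against a 2-fold difference (limma adjusted p = 0.458 and 1). Over the single probes, genes and pairs named, 653 of 684 alternative values kept sign and side of the threshold, 26 no longer passed and 4 newly passed. Each value already compared liver with spleen on the same array, and the 3 arrays form 1 group with no further pairing. Against a 2-fold difference, 831 of all probes passed toward liver (3319 against 0) and 612 toward spleen (3767 against 0). The related lists also kept fewer: other transferases 4 toward liver and 0 toward spleen, glutathione supply 6 and 0, glutathione redox 4 toward liver and 1 toward spleen, conjugate breakdown 4 and 0, Nrf2 and targets 4 and 1, and tyrosine breakdown 6 and 0. Those lost included probes with means beyond 1 in size, such as Gsto1 at 1.59 ± 0.38 (limma adjusted p = 0.0519). This test asks whether a mean lies beyond 1 given its spread, so a mean somewhat above 1 can fail it. With exact 0 kept as a value, other transferases had 3 toward spleen and tyrosine breakdown 0, and the cause was not tested. With 1 array left out, the count toward spleen ran from 3 to 4 for other transferases and from 0 to 1 for tyrosine breakdown, in fits with fewer arrays. Signal over background was not used here and limits what a ratio near 0 can show.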
